A study of Danio rerio with 2 samples.

Results

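Sorted zebrafish craniofacial cartilage contains, besides chondrocytes, cells that carry transcripts of fibrous connective tissue and little of the cartilage matrix gene matn1. A cell barcode was counted as such a cell when postnb, col5a1 and mfap2 together gave at least 4 unique molecular identifiers (UMIs) and matn1 stood under 20 UMIs per 10000 of the barcode's total. It also held at most 1 UMI each of mgp and ccl25b, at most 2 of col10a1a and at most 4 of mmp13b. The rule found 397 members among 4062 barcodes. Of these, 248 were among the 2057 barcodes of the wild-type (WT) library and 149 among the 2005 barcodes of the nkx3.2 mutant library.

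Each genotype was 1 library, captured with the 10x Genomics 3′ kit. The WT fish were labelled 21 days post fertilization and the mutants, homozygous el802/el802, 22 days, whereas the protocol text gives 21 days for both. All fish carried Tg(fli1a:EGFP)y1 and Tg(sox10:DsRed)el10, and only live cells positive for both reporters were kept, so the gate limits which fibrous cells could be seen. The number of fish behind a library is not given in the sources used here. With 1 library per genotype no test between genotypes could be run, and genotype, age and library cannot be told apart. Every interval below is a 95% interval for counting error only.

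Fibrous connective tissue (tendon, ligament, fascia and the fibrous layer around cartilage) is built from collagen I fibrils. Collagen V starts fibrils and limits their width, while collagen XII and small leucine-rich proteoglycans such as decorin and lumican coat them. Periostin and the tenascins tie matrix to cells, and MFAP2 belongs to the fibrillin microfibril. Nkx3.2 is a homeodomain transcription factor best known for its role in the developing jaw joint.

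Members made up 12.1% of WT barcodes (10.7 to 13.5) and 7.43% of mutant barcodes (6.32 to 8.67). The size of the share rests on how the rule was set. The 3 summed markers were themselves lower in the mutant library, and whether this bears on the share was not tested. A marker sum of at least 6 UMIs gave 8.896% and 4.638%, and leaving out the bounds on the 4 other genes gave 15.22% and 9.975%. The WT share was the higher under every setting of the rule that was run. Just inside the limit, 38 WT and 28 mutant members had a marker sum of exactly 4 UMIs, and just outside it 46 and 37 barcodes had 3 UMIs and passed all other bounds. The matn1 bound kept out 44 WT and 16 mutant barcodes that met all else. The highest matn1 level inside was 19.64 UMIs per 10000 in WT and 18.94 in the mutant, and the lowest outside 20.66 and 20.37. No matn1 UMI was found in 83 WT and 59 mutant members.

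**Figure D1:**
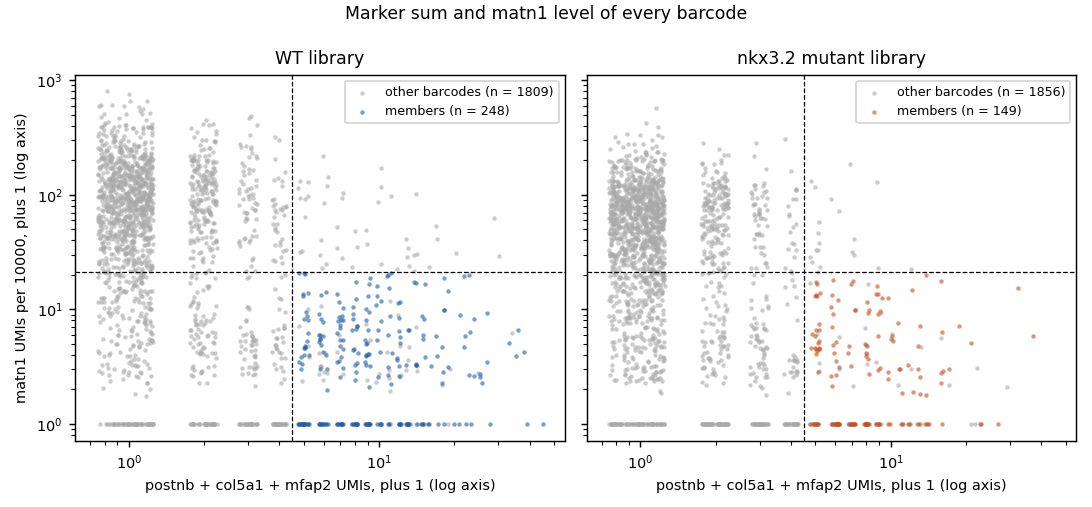
Each point is 1 barcode: the horizontal axis gives the summed UMIs of postnb, col5a1 and mfap2, plus 1, with a small sideways jitter, and the vertical axis matn1 UMIs per 10000, plus 1, both on log axes. Coloured points are the 248 WT and 149 mutant members, dashed lines mark the limits of 4 UMIs and 20 per 10000, and grey points inside both limits failed another bound.

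Members were shallower than the other cells. Their median total was 4307.5 UMIs in WT and 4705 in the mutant library, beside 6102 and 7308.5 in all other barcodes. Summed over members there were 1183527 WT and 817656 mutant UMIs, and levels are given as CPM, the UMIs of a gene scaled to these totals. A median of 0.893% of a WT member's UMIs and 0.703% of a mutant member's were mitochondrial, and ribosomal protein genes took 47.2% and 51.5%. The libraries shared 4 barcodes, and 0 of them were members in both. The doublet caller Scrublet marked 12 barcodes in all and 0 members, a share of 0.295% of barcodes that is too low to say that members hold no doublets.

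The rule's own markers show the size of the signal that chose the cells. postnb, a periostin gene, held 512 UMIs in WT and 179 in mutant members, or 433 and 219 CPM, beside 17.7 and 5.80 CPM in the other barcodes. col5a1 stood at 751 and 564 CPM and mfap2 at 885 and 689.8 CPM. All 3 markers were detected together in 108 WT and 46 mutant members, and only 1 of the 3 in 13 and 10.

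Many genes that the rule did not use were also higher in members than in other barcodes. Of 1225 genes with at least 100 UMIs in members, 1221 were no part of the rule. Of these, 238 (19.5%) stood at least 2-fold higher in members than in all other barcodes in both libraries, and 37 (3.03%) at least 2-fold lower. With the rule genes counted, 241 (19.7%) were higher. Since the cells were picked on a few of these transcripts, this is a description of the cells and not a test. The tendon membrane protein gene tnmd was at 190.1 CPM in WT members and 163 CPM in mutant members, 31.5 and 21.1 times its level elsewhere. ogn, a leucine-rich proteoglycan gene, was at 542 and 455 CPM, 20.4 and 9.76 times the level elsewhere. hyal4, of the hyaluronidase family, was at 300 and 296 CPM, 25.8 and 25.1 times the level elsewhere.

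Most of each library's tnmd and hyal4 transcript lay in the members. They held 74.5% of the WT library's tnmd UMIs and 52.6% of the mutant library's, and 70.6% and 56.9% of hyal4. For ogn the shares were 65.4% and 33.9%. ogn was the exception in the mutant library, where most of its UMIs lay outside the members.

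The 20 genes with the highest ratio over other barcodes in both libraries included the 3 summed markers, which the rule itself placed there, and 17 others, tnmd and hyal4 among them. Matrix genes among these 17 were c1qtnf5, tnc and tnw (tenascins), col12a1b, the small proteoglycans lum and dcn, adamtsl2, a microfibril-associated gene, and coch. c1qtnf5 was lowest elsewhere: it stood at 73.5 CPM in WT and 36.7 in mutant members, against 1.88 and 0.901 CPM in other barcodes. col12a1b was at 190.1 and 104 CPM against 10.4 and 4.76. Genes with other roles were hspb1 (a small heat shock protein), cldn11a (a claudin), the flow-responsive factor klf2a, entpd1, mgst1.2, vwde and ENSDARG00000087402, which the reference names tpm1. A few cells carried some of these. The member with the most coch held 40% of the WT and 32.7% of the mutant coch UMIs, and c1qtnf5 was found in 9.27% of WT and 6.71% of mutant members.

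**Figure D2:**
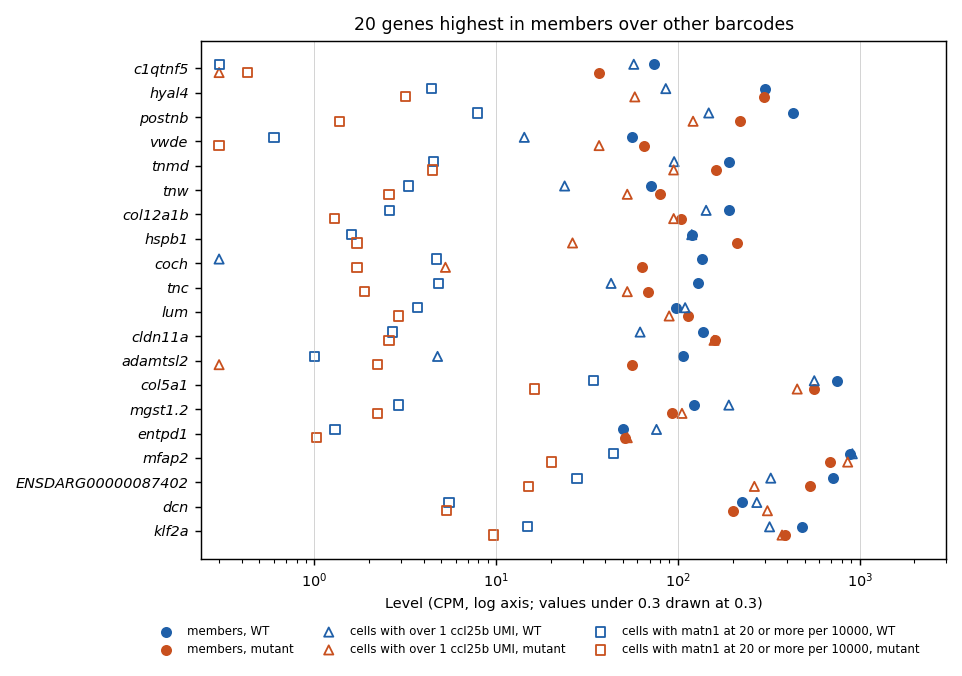
The level in CPM, on a log axis, of the 20 genes highest in members (filled circles), in cells that met the rule but for more than 1 ccl25b UMI (triangles) and in cells with matn1 at 20 or more per 10000 (squares), in blue for WT and orange for the mutant. The squares lie to the left of the circles for all 20 genes, while the triangles reach the circles for mfap2, dcn and lum and lie far below them for adamtsl2 and coch.

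The lists of matrix genes were counted without the rule genes that they hold. Among all 4360 other genes with at least 20 UMIs in members, 17.8% were at least 2-fold higher in members than elsewhere in both libraries. That held for 11 of the 12 measured fibrous collagens, with col15a1b, a basement-membrane-zone collagen, as the exception. It held for 10 of 13 tendon and ligament genes, 10 of 16 matricellular genes, 8 of 15 microfibril and elastic genes and 6 of 10 leucine-rich proteoglycans. With col5a1 included, the fibrous collagens took a median of 0.243% of a WT member's UMIs and 0.158% of a mutant member's, against 0.0211% and 0.0144% in other barcodes. The tendon factor scxa was sparse, with 19 WT and 18 mutant UMIs, and its paralog scxb had 0 in both libraries.

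The label was checked against markers of other cells. The chondrocyte list summed to 6735 CPM in WT and 6654.4 CPM in mutant members, against 55033.1 and 34612.8 CPM elsewhere. Of its 12 measured genes outside the rule, 9 were at least 2-fold lower in members in both libraries, beside 2.82% of all such genes. Another 2 went the other way, at least 2-fold higher in members in both libraries, beside 17.8% of all such genes. col2a1a, the main collagen gene of cartilage, stood at 1797.2 and 1647.4 CPM in members, against 17801.7 and 10711 CPM in cells with matn1 at 20 or more per 10000. Whether the cartilage transcripts in members came from the cells or from free RNA was not tested. Of the 16 leukocyte markers, the 11 erythroid markers and the 15 pigment cell markers, 0 reached 20 UMIs. The endothelial genes cdh5, kdr and tie1 had 0 UMIs, whereas fli1a, whose reporter was part of the sort, stood at 81.96 and 88.1 CPM and erg at 46.5 and 35.5 CPM. The endothelial list summed to 155.5 and 137 CPM in members against 46.14 and 52.99 CPM elsewhere, with 2 of its 3 measured genes at least 2-fold higher in members in both libraries. The adipocyte list, with 2 of 2, summed to 89.56 and 96.62 CPM against 27.07 and 27.56. The dermal fibroblast list, which holds collagen I genes, dcn and lum, summed to 6571.9 and 7660.9 CPM against 2128 and 2795.2 CPM elsewhere. Of its 11 measured genes, 9 were at least 2-fold higher in members in both libraries. The same held for 3 of 5 stromal genes outside the rule and 2 of 6 perichondrium genes, with 2 more at least 2-fold lower. It also held for 1 of 3 mural genes and 1 of 2 osteoblast genes.

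Transcripts of the epithelial list summed to more than the endothelial and adipocyte sets but less than the chondrocyte and dermal fibroblast sets. They stood at 3765.9 and 2929.1 CPM in members against 2411.7 and 1845.8 CPM elsewhere. Of 5 measured genes, 2 were at least 2-fold higher in members in both libraries. The epithelial adhesion genes epcam and cdh1, and cldn1 and krtt1c19e, had 0 UMIs in members of both libraries. Keratin genes were abundant all the same: krt8 stood at 1580.9 and 1322.1 CPM, krt18 at 1106.9 and 759.5 and krt4 at 748 and 511, and the inflammation-linked calcium-binding gene icn at 322 and 318. Members with at least 2 UMIs of krt4, krt15, icn or cfd numbered 72 in WT (29.0%) and 42 in the mutant library (28.2%). Of the other barcodes, 17.9% and 18.1% met the same bar. These genes were picked after their values were seen.

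Members with at least 2 UMIs of any of those 4 genes are called keratin-bearing here, although icn and cfd are not keratin genes. They were compared with the 147 WT and 90 mutant members that held 0 UMIs of the 4 genes. The latter still held krt8 at 926 and 687 CPM and krt18 at 748 and 375 CPM. Several genes differed in the same direction in both libraries, given as keratin-bearing members against those with none of the 4 genes. f13a1b, a transglutaminase gene, was 36.7-fold higher in WT (885 against 24.1 CPM) and 35.95-fold higher in the mutant library (856 against 23.8 CPM). The tyrosine-catabolism gene hpdb was 11.6-fold and 12-fold higher. col1a2 was 1.98-fold (1.76 to 2.22) and 3.50-fold higher, and col2a1a was at 758 against 2433.9 CPM in WT and 382 against 2336 CPM in the mutant library. Both libraries thus had more collagen I and less cartilage collagen transcript in keratin-bearing members than in members with none of the 4 genes. hyal4 was lower in them, at 242 against 335 CPM in WT and 145 against 335 CPM in the mutant library. tnmd was at 163 against 176 CPM and 119 against 167 CPM. Other genes went apart between the libraries: ogn had a ratio of 0.816 (0.672 to 0.989) in WT and 1.86 (1.48 to 2.33) in the mutant library, sesn1 3.09 (1.50 to 6.64) and 0.765 (0.479 to 1.19), and mfap2, a rule gene, 0.605 (0.520 to 0.701) and 0.972 (0.797 to 1.18).

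The members were not of 1 kind by tnmd, ogn and hyal4 either. None of the 3 was detected in 80 WT and 46 mutant members, and all 3 in 13 and 5. After each member was thinned to 2500 UMIs, which left 234 WT and 142 mutant members, tnmd was found in 16.7% of WT members (12.1 to 22.1) and 12.7% of mutant members (7.69 to 19.3). In matn1-rich cells thinned alike, the shares were 0.905% and 1.28%. For ogn the members' shares were 35.0% and 31.7%, against 3.78% and 2.65% in matn1-rich cells. For hyal4 they were 27.4% and 30.99%, against 0.493% and 0.427%. Without thinning, tnmd was found in 18.55% and 14.8% of members, ogn in 43.95% and 45.6% and hyal4 in 35.9% and 39.6%. The members' shares stood above those of matn1-rich cells in each case, and the WT and mutant intervals of members overlapped for all 3 genes.

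Members with at least 2 tnmd UMIs, 36 in WT and 18 in the mutant library, carried the most collagen I. col1a1a stood at 2390.7 CPM in WT members with tnmd and 474.7 in members without it, a ratio of 5.04 (4.41 to 5.75). In the mutant library it stood at 1813.5 and 278 CPM, a ratio of 6.52 (5.33 to 7.98). tnw, tenascin W, was 3.36-fold and 10.2-fold higher with tnmd, vwde 5.57-fold and 5.13-fold, asip2b, of the agouti family, 10.2-fold and 4.27-fold, and clybl 3.72-fold and 3.10-fold. Single cells weigh on these levels. Among all members, 1 cell held 18.8% of the WT and 16.95% of the mutant col1a1a UMIs. In the mutant library 1 cell held 24.6% of tnw, 1 held 24.5% of vwde and 1 held 26.5% of asip2b. Whether these cells were among those with tnmd was not tested. The keratin gene krt15 was at 40.6 CPM with tnmd and 423 CPM without it in WT, and at 17.9 and 359 CPM in the mutant library. Other genes did not follow: krt8 was at 1400.9 against 1635.8 CPM in WT and 1313.2 against 1332.1 in the mutant library, and thbs4b had a ratio of 1.56 (0.941 to 2.51) in WT and 3.35 (1.84 to 5.92) in the mutant library. The cartilage-expressed gene ucmaa was 2.51-fold and 2.78-fold higher with tnmd.

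Members with at least 2 ogn UMIs, 76 in WT and 50 in the mutant library, were marked by adamtsl2. It stood at 205 CPM with ogn and 13.1 without it in WT, a ratio of 15.7 (7.62 to 37.6), and at 134 and 11.6 CPM in the mutant library, a ratio of 11.6 (4.58 to 37.5). The transcription factor genes erg, of the ETS family, and foxf2a, a forkhead gene, were higher with ogn, 5.10-fold and 5.36-fold for erg and 4.22-fold and 12.2-fold for foxf2a. Mutant members without ogn held only 5 erg and 3 foxf2a UMIs. vwde was 4.54-fold and 8.47-fold higher, and si:ch211-76l23.4 4.71-fold and 13.65-fold, the latter from 1 mutant UMI without ogn. On the other side, nkx3.2 was lower with ogn, at 9.88 against 32.6 CPM in WT and 6.54 against 57.9 CPM in the mutant library. Few nkx3.2 UMIs lay behind this. In WT there were 4 against 20, with a ratio interval of 0.0753 to 0.904. In the mutant library there were 2 against 25, with an interval of 0.0130 to 0.453. crhbp, which encodes a binding protein of corticotropin-releasing hormone, was at 4.94 against 97.9 CPM in WT and 13.1 against 166.7 in the mutant library. Its levels with ogn came from 2 WT and 4 mutant UMIs. The globin-fold gene cygb1 went the same way, at 32.1 against 99.5 and 19.6 against 97.2 CPM. Of the keratin genes, krt4 was higher with ogn, at 1334.1 against 525.2 CPM in WT and 813.8 against 386.6 CPM in the mutant library. krt8 was 1.44-fold and 1.67-fold higher and krt18 1.39-fold and 1.81-fold. krt15 went apart, with a ratio of 0.839 (0.680 to 1.03) in WT and 1.48 (1.15 to 1.91) in the mutant library.

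Members with at least 2 hyal4 UMIs, 60 in WT and 39 in the mutant library, had lower levels of keratin transcripts. krt4 was at 82.7 against 1073.3 CPM in WT and 50.9 against 735.8 CPM in the mutant library, and krt8 at 713.9 against 1998.8 and 514 against 1734.2 CPM. krt15 and cfd had 0 UMIs in these cells in both libraries, against 539 and 705 CPM in WT members without hyal4. The keratin gene ENSDARG00000036830 was at 60.1 against 2015.2 CPM in WT and 127 against 2548.6 CPM in the mutant library. mmp14b, a membrane-bound matrix metalloproteinase gene, was higher with hyal4, at 868 against 186.9 CPM in WT, a ratio of 4.65 (3.76 to 5.75), and at 697 against 128 CPM in the mutant library, a ratio of 5.43 (4.03 to 7.39). The receptor gene lrp1bb was 5.58-fold and 7.97-fold higher, the scaffold gene akap12b 4.46-fold and 4.87-fold, and the secreted lectin gene clec11a 3.68-fold and 3.98-fold. Collagen I went the other way, with col1a2 at 778 against 1449.5 CPM in WT and 529 against 903 CPM in the mutant library.

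**Figure D3:**
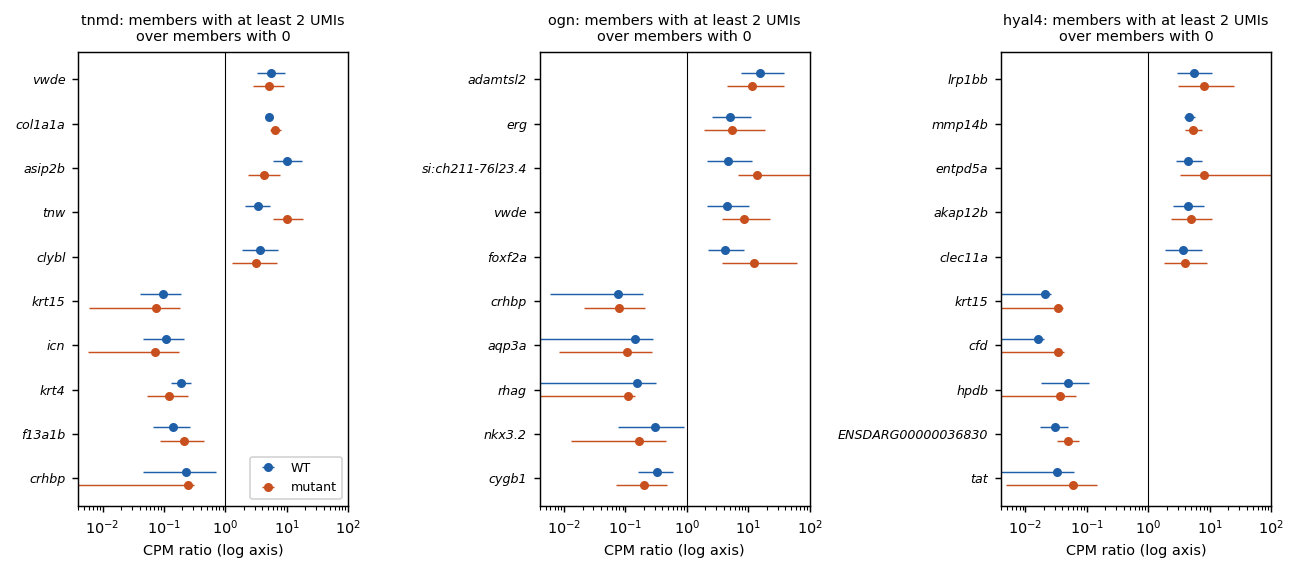
The ratio of the CPM level in members with at least 2 UMIs of tnmd, ogn or hyal4 to that in members with 0, on a log axis, for the 5 highest and 5 lowest genes of each panel, with 95% counting intervals, in WT (blue) and the mutant library (orange). A count under 3 UMIs was set to 3, and intervals that reach the axis end run past it. Genes were ranked by the less extreme of the 2 libraries' ratios, which places both libraries on one side of 1.

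Cells that failed a single bound show what borders the members. The 36 WT and 31 mutant cells with more than 1 ccl25b UMI, a chemokine gene, held mfap2, which the rule required in part, at 911 and 859 CPM. Outside the rule, dcn was at 271.9 and 311 CPM in them, beside 225.6 and 200.6 CPM in members, and hyal4 was lower than in members, at 85.9 and 58.0 CPM. Their cxcl12a, another chemokine gene, stood at 1784.3 and 880 CPM, against 199 and 247 CPM in members. ogn was lower in them than in members, at 100.2 and 121 CPM. The 19 WT and 9 mutant cells with more than 4 mmp13b UMIs had 0 tnmd UMIs and hyal4 at 191 and 328 CPM, and their nkx3.2 stood at 255 and 197 CPM, against 22.8 and 33.0 CPM in members. The 44 and 16 cells with more matn1 were cartilage-rich, with col2a1a at 11219.1 and 8059.5 CPM.

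The targeted gene was scarce in members. nkx3.2 held 27 UMIs in each library. Its level was 22.8 CPM in WT members and 33.0 CPM in mutant members, and the ratio of 1.45 had an interval of 0.817 to 2.56. Without the bounds on mgp, ccl25b, col10a1a and mmp13b the log2 ratio turned from 0.53 to -0.42. Where el802 lies in the gene is not stated in the sources used here, and 3′ counts need not drop with such an allele, so the labels are left unchecked by this gene.

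Of the 1225 genes with at least 100 UMIs, 835 (68.2%) had a mutant over WT ratio below 1 in members, and the median log2 ratio was -0.21. The share below 1 was 55.84% with TMM scaling and 54.61% with scaling that leaves out mitochondrial and ribosomal protein genes. At least 2-fold differences were few: 55 genes (4.49%) were lower in mutant members and 13 (1.06%) higher, 68 in all (5.55%). The split rests on scaling. With TMM scaling, which raised all log2 ratios by 0.13, 30 genes were lower and 21 higher, and with scaling to the total without mitochondrial and ribosomal protein genes, which raised them by 0.14, 29 were lower and 23 higher. The choice of cells bears on it too: with the rule applied to counts thinned to 2500 UMIs, which left 160 WT and 78 mutant members, 14 of 808 genes were lower and 6 higher. Of the named genes, 50 then left their counting interval. Ratios below are to the plain member total.

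**Figure D4:**
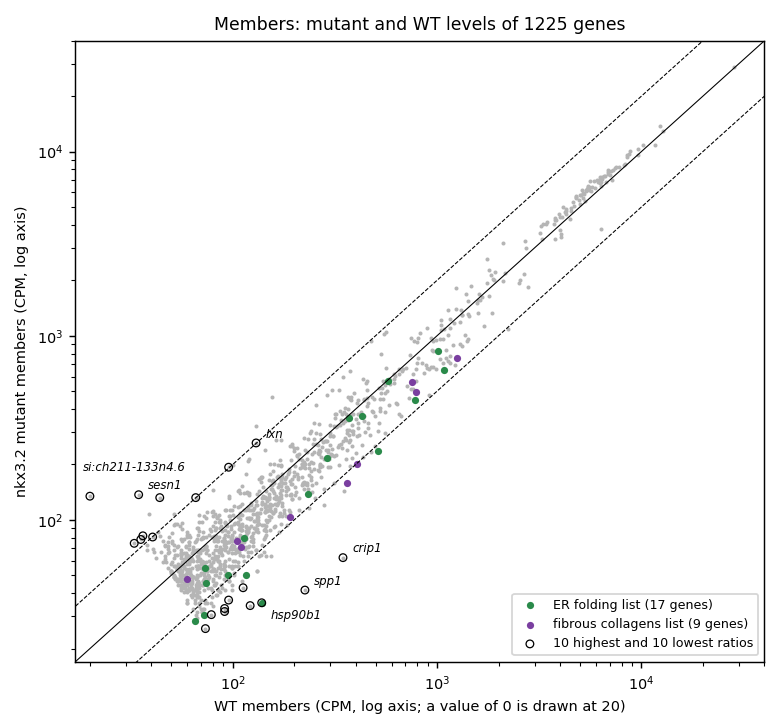
Each point is 1 of 1225 genes, with its level in WT members on the horizontal and in mutant members on the vertical axis, both in CPM on log axes. The solid line marks equal levels and the dashed lines 2-fold differences. Open circles mark the 10 highest and 10 lowest ratios, and the green points of the ER folding list lie on or below the line of equal levels.

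Genes for folding proteins in the endoplasmic reticulum (ER) were the most uniformly lower list. Of 38 listed genes 29 were measured, and all 29 had a ratio below 1, with 15 at least 2-fold lower. Over all 4366 genes with at least 20 UMIs, 65.9% were below 1, 10.6% at least 2-fold lower and 2.91% at least 2-fold higher. The ER list's median log2 ratio was -1.11, beside -0.23 over all those genes and -0.83 for the same list in the other barcodes. With TMM scaling 27 of the 29 were below 1. For a marker sum of at least 6 all 29 were below 1, 11 were at least 2-fold lower and the median was -0.78. Over the 17 list genes with at least 100 UMIs, 5 were at least 2-fold lower and the median was -0.73. The chaperone gene hspa5 was at 513 CPM in WT and 237 CPM in mutant members, a ratio of 0.463 (0.392 to 0.545). The ER form of the heat shock chaperone, hsp90b1, was at 139 and 35.5 CPM, a ratio of 0.256 (0.166 to 0.382), or -1.97 on the log2 scale and -1.08 with members chosen after thinning. serpinh1b, the collagen chaperone, was at 1082.4 and 653 CPM, a ratio of 0.603 (0.544 to 0.668), beside 0.389 in the other barcodes. pdia3, a disulfide isomerase gene, was nearly level at 573 and 569.9 CPM. A member's UMIs from this list had a median of 0.616% in WT and 0.421% in the mutant library.

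Fibrous collagen genes were lower in mutant members in 11 of 13 cases, the rule gene col5a1 among them, beside 65.9% of all genes measured. The median log2 ratio was -0.67, and -0.61 for the same list in the other barcodes. col1a2 stood at 1248.8 CPM in WT and 753 CPM in mutant members, a ratio of 0.603 (0.548 to 0.663). col1a1a was at 791 and 498 CPM, a ratio of 0.629 (0.559 to 0.708). In the other barcodes the ratios of col1a2 and col1a1a were 0.567 and 0.489. The only collagens at least 2-fold lower were col1a1b, at 406 and 201 CPM (0.494, 0.411 to 0.590), and col12a1a, at 363 and 158 CPM (0.435, 0.355 to 0.531). col14a1a and col15a1b were the members of the list above 1, at 1.21 and 1.03, each with an interval that spans 1. Without the keratin-bearing members, 5 collagens were at least 2-fold lower and the median was -0.78. With the mean of per-cell CPM, 11 of 13 were still below 1, but 0 were at least 2-fold lower and the median was -0.46. The log2 ratio of col1a1a, -0.67, became -0.22 with that mean and -0.21 with members chosen after thinning. That of col1a2, -0.73, became -0.46 and -0.30.

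The microfibril and elastic list was below 1 in 15 of 16 genes, the rule gene mfap2 among them, beside 65.9% of all genes measured. Its median was -0.43, and -0.35 for the same list in the other barcodes. The fibulin gene fbln2 was at 51.5 and 23.2 CPM, a ratio of 0.451 (0.254 to 0.765), and the lysyl oxidase gene loxa at 85.3 and 48.9 CPM, a ratio of 0.573 (0.387 to 0.834). fibina alone was above 1, at 1.09 (0.816 to 1.46). loxl2b, another crosslinking enzyme gene, was at 117 and 113 CPM.

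The matricellular list had 11 of 17 genes below 1, the rule gene postnb among them, near the 65.9% of all genes measured. Its median was -0.11, which became 0.02 with TMM scaling, and -0.49 for the same list in the other barcodes. The periostin gene postna and tenascin C were among the lower ones. postna had a ratio of 0.138 (0.0359 to 0.380), from 42 WT and 4 mutant UMIs. Its paralog postnb had one of 0.506 (0.424 to 0.601), but postnb UMIs helped choose the members, so that value describes the chosen cells only. tnc was at 129 and 68.5 CPM, a ratio of 0.530 (0.383 to 0.724). tnw was at 71 and 79.5 CPM and ctgfa, a connective tissue growth factor gene, at 652 and 618 CPM, and neither interval excluded 1.

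Tendon and ligament genes had no common direction. Of 13 measured genes, 6 were above 1 and 7 below, where 65.9% of all genes with at least 20 UMIs were below 1. The median of -0.23 turned to 0.08 with a marker sum of at least 6. Of the 6 genes with at least 100 UMIs, 5 were below 1, beside 68.2% of all such genes, with a median of -0.63. tnmd was found at 190.1 and 163 CPM, a ratio of 0.856 (0.685 to 1.07), so its difference was within counting error. mkxa, encoding a homeobox factor of tendon, held 17 WT and 29 mutant UMIs, a ratio of 2.47 (1.31 to 4.79). After thinning to 2500 UMIs it was found in 2.56% of WT (0.947 to 5.50) and 6.34% of mutant members (2.94 to 11.7). In matn1-rich cells thinned alike, the shares were 3.29% and 6.83%, so mkxa was not more frequent in members. fmoda, a fibromodulin gene, held 21 and 50 UMIs, a ratio of 3.45 (2.03 to 6.04), and was found in 6.05% of WT and 19.5% of mutant members. thbs4b, a thrombospondin gene of tendon attachments, was at 87.9 and 69.7 CPM, with an interval of 0.564 to 1.11.

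The leucine-rich proteoglycans were above 1 in 6 of 10 genes and below it in 4, where 65.9% of all genes measured were below 1. aspn, asporin, was lower, with 497 and 251 CPM and a ratio of 0.505 (0.428 to 0.593). ogn had a ratio of 0.839 (0.736 to 0.955), on the log2 scale -0.25 and -0.99 with the rule applied after thinning, and dcn one of 0.889 (0.727 to 1.08). epyc, which encodes a cartilage proteoglycan and was lower in members than elsewhere, had a ratio of 1.25 (1.04 to 1.50). The list's median of 0.24 fell to -0.03 with a marker sum of at least 6 and to -0.17 over its 5 genes with at least 100 UMIs.

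Only 5 of 20 hyaluronan and versican genes were measured. hyal4 was level between the genotypes, at a ratio of 0.987 (0.835 to 1.17). hapln1a, a link protein gene, was at 142 and 67.3 CPM, a ratio of 0.474 (0.343 to 0.646). That log2 ratio of -1.08 became -0.31 without the keratin-bearing members and -0.10 with members chosen after thinning. vcanb held 20 and 3 UMIs and tnfaip6 33 and 7. The list's median was -1.08, beside -0.82 in the other barcodes, and it was -0.10, over 4 genes, without the keratin-bearing members. Matrix enzymes showed small differences: mmp2, a gelatinase gene, stood at 1128 and 1383.2 CPM, a ratio of 1.23 (1.13 to 1.33), and mmp14b at 373 and 306 CPM, a ratio of 0.821 (0.699 to 0.961), which turned above 1 (log2 0.31) with members chosen after thinning.

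**Figure D5:**
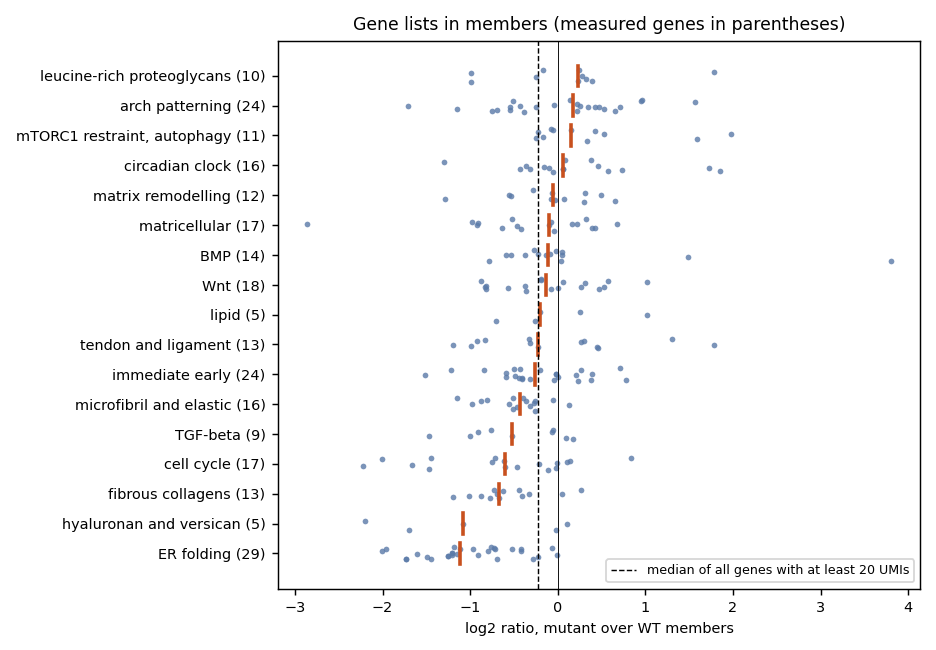
The log2 ratio of mutant over WT members for each list gene with at least 20 UMIs, 1 point per gene, with the list's median as an orange bar and the number of measured genes in parentheses. The dashed line is the median of all 4366 such genes, -0.23, and ER folding, hyaluronan and versican and fibrous collagens lie farthest below it.

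Signalling genes differed one by one, and the counts of each list stand beside a share of 65.9% below 1 over all genes with at least 20 UMIs. In the TGF-beta list 7 of 9 genes were below 1, and 5 of 9 with TMM scaling. tgfb3, the most abundant ligand measured, was at 211 CPM in WT and 113 CPM in mutant members, a ratio of 0.533 (0.415 to 0.679). The repressor gene tgif1 had a ratio of 0.501 (0.333 to 0.738), a log2 value that shrank to -0.31 with members chosen after thinning. Of the BMP genes 9 of 14 were below 1, and 7 of 14 with TMM scaling. fstl1b, a follistatin-like gene, was at 399.7 and 231 CPM, a ratio of 0.578 (0.486 to 0.686), and had a ratio of 0.454 in the other barcodes. The antagonist genes nog1, with 15 and 29 UMIs, and grem1a, with 3 and 29, were higher in mutant members, and for grem1a a single mutant cell held 31.0% of the UMIs. The target genes id1, at 377 and 373 CPM, and id2a, at 314 and 322 CPM, were level. Wnt genes were below 1 in 11 of 18 cases, and in 9 of 18 with TMM scaling. The secreted regulator gene dkk3b had a ratio of 0.543 (0.359 to 0.804), and wnt11r one of 1.38 (1.01 to 1.89).

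Transcription factors of the facial skeleton had no common direction. Of 24 measured, 13 were above 1 and 11 below, where 65.9% of all genes measured were below 1. The median was 0.18, beside -0.25 for the same genes in the other barcodes. twist1a, a mesenchyme factor, was at 381 and 445 CPM, a ratio of 1.17 (1.01 to 1.34). msx3 held 25 WT and 51 mutant UMIs, a ratio of 2.95 (1.80 to 4.97), and pou3f3a 45 and 60, a ratio of 1.93 (1.29 to 2.91). twist2 went the other way, with 93 and 29 UMIs, a ratio of 0.451 (0.287 to 0.691). The paired-type factors prrx1a, at 120 and 139 CPM, and prrx1b, at 81.96 and 97.8 CPM, had intervals that span 1.

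Of 17 measured cell cycle genes, 14 were below 1 in mutant members, beside 65.9% of all genes with at least 20 UMIs. Of the 17, 5 were at least 2-fold lower, beside 10.6% of all such genes, and all 5 were subunits of the MCM helicase. The list's median of -0.60 was -0.14, with 10 of 17 below 1, for a marker sum of at least 6, -0.11 over its 7 genes with at least 100 UMIs, and -1.26 over 16 genes without the keratin-bearing members. With TMM scaling 11 of 17 were below 1, beside 55.84% of the genes with at least 100 UMIs under the same scaling. mcm4 held 54 and 8 UMIs, a ratio of 0.214 (0.0881 to 0.453), and mcm7 63 and 16, a ratio of 0.368 (0.198 to 0.644). mcm4 was found in 11.3% of WT and 4.03% of mutant members. pcna, the replication clamp gene, was at 223 and 147 CPM, a ratio of 0.658 (0.526 to 0.819), whereas hmgn2 was level at 1583.4 and 1555.7 CPM. The latter rests on the cells kept: its log2 ratio of -0.03 became -0.86 without the keratin-bearing members and 1.01 with members chosen after thinning. A single mutant member held 26.3% of the mutant hmgn2 UMIs. Without the top cell of each library the log2 ratio of hmgn2 was -0.39.

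Immediate early genes were below 1 in 16 of 24 cases, near the 65.9% of all genes, and in 13 of 24 with TMM scaling. nr4a1 was at 91.3 and 31.8 CPM, a ratio of 0.349 (0.218 to 0.539), and its log2 ratio of -1.52 became -0.76 without the bounds on mgp, ccl25b, col10a1a and mmp13b. mycb, at 347 and 596 CPM (1.71, 1.50 to 1.96), and junbb, at 289 and 474.5 CPM (1.64, 1.42 to 1.91), were higher in mutant members. Circadian clock genes had no common direction, with 9 of 16 above 1. Of the 5 measured lipid genes, 2 were above 1 and 3 below, with a median log2 ratio of -0.20. The lipase gene lpl held 38 and 53 UMIs, a ratio of 2.02 (1.31 to 3.15), and fabp3 was at 232 and 276 CPM. Among the lower ones, ldlra had a ratio of 0.612 (0.273 to 1.28) and lrp1ab one of 0.838 (0.360 to 1.85).

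Among the genes with at least 100 UMIs that the naming rule allowed, the mTORC1 brake sesn1 had the highest ratio after si:ch211-133n4.6. sesn1 was at 34.6 CPM in WT and 137 CPM in mutant members, a ratio of 3.95 (2.74 to 5.80). Its log2 ratio of 1.98 ranged from 1.05, with members chosen after thinning, to 2.67 without the keratin-bearing members. It was found in 14.1% and 36.9% of members before thinning, and in 7.69% and 26.1% after it. akt1s1, another mTORC1 inhibitor gene, followed at 43.9 and 132 CPM, a ratio of 3.01 (2.14 to 4.27). In the other barcodes their ratios were 4.70 and 2.94. Their list was split otherwise, with 6 of 11 genes above 1 and 5 below, where 65.9% of all genes with at least 20 UMIs were below 1. lxn, a carboxypeptidase inhibitor gene, was at 130.1 and 262 CPM, a ratio of 2.01 (1.63 to 2.49), or 1.01 on the log2 scale and 0.38 with members chosen after thinning. In the other barcodes the ratio of lxn was 2.625. fastkd2, krt94, cfl1l, srsf5a, si:ch211-286o17.1 and znf395b lay between 1.99 and 2.26, and between 1.36 and 2.98 in the other barcodes. krt94 fell below 1 without the keratin-bearing members, and with members chosen after thinning cfl1l (log2 0.16) and si:ch211-286o17.1 (0.10) stood near 1. si:ch211-133n4.6 had 0 WT and 110 mutant UMIs, at least 53.1-fold higher against a floor of 3 UMIs, but 1 mutant cell held 89.1% of them.

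At the low end, crip1, a LIM-domain gene, was at 346 CPM in WT and 62.4 CPM in mutant members, a ratio of 0.180 (0.132 to 0.241). A single WT cell held 34.6% of its UMIs, and the log2 ratio of -2.47 became -1.88 with members chosen after thinning. After thinning, crip1 was found in 22.2% of WT (17.1 to 28.1) and 8.45% of mutant members (4.44 to 14.3). spp1, osteopontin, had a ratio of 0.184 (0.125 to 0.264), and 1 cell held 81.7% of the WT and 67.7% of the mutant UMIs. Its log2 ratio turned from -2.44 to 0.42 with a marker sum of at least 6. The ratios of crip1 and spp1 in the other barcodes were 0.4445 and 0.423. The other low genes had varied roles. txn, a thioredoxin gene, fbl, of ribosomal RNA processing, psmb7, a proteasome subunit, snrpg, of the spliceosome, isg20, an exonuclease gene, and the phosphatase gene dusp5 had ratios from 0.282 to 0.389. In the other barcodes the same genes had ratios from 0.402 to 0.847. With members chosen after thinning the log2 ratio of txn went from -1.83 to -0.59, that of dusp5 from -1.47 to -0.57 and that of snrpg from -1.36 to 0.00.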

How the data were processed

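Per the submitters' processing notes the authors used Cell Ranger. Its version, the genome build and the annotation are not given in the sources used here. The deposited matrices hold UMI counts per gene and barcode, 35117 genes in all, and 4218 entries share a symbol with another and were kept under their own identifiers. The WT library held 13927936 UMIs and the mutant library 16349558.

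Members were found on the raw counts of all barcodes with no further cell filter, and no map from cells to fish was used here, so each library is 1 sample. The members and gene lists were chosen with earlier results of these data known. UMIs were summed over members and divided by their total (CPM). A count under 3 was set to 3 in ratios. Ratios have exact conditional binomial intervals and shares exact (Clopper-Pearson) ones, at 95%. PCR and capture error lie outside them. No test was run. Of 656 list genes, 623 matched a symbol.

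Genes were named by rule: the markers and rule genes, the 20 highest over other barcodes, the 10 highest and 10 lowest mutant over WT ratios with at least 100 UMIs (without mitochondrial, ribosomal and rule genes and genes under 0.5 of their level elsewhere), up to 4 of the most abundant genes of each list, the 5 leading genes with tnmd, ogn and hyal4, and nkx3.2. Other genes, and the keratin-bearing cells, were picked after their values were seen. Simulated UMI sums with log2 changes of -1 and 1 gave medians of -0.96 and 1.00, and 40% and 52% of these genes passed 2-fold. The sums were drawn with Poisson counting error alone, the error that the intervals assume. Uneven spread of a gene over cells was not simulated, so the intervals are unchecked against it. Alternatives covered the rule's limits, thinning, scaling (edgeR 4.0.16), doublets (Scrublet in Scanpy 1.11.5) and the UMI minimum.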

Additional observations from a re-analysis of the deposited data

Results flagged for a closer look

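Of 95 named genes measured in both populations, 8 had a mutant over WT ratio on one side of 1 in members and on the other side in all other barcodes, each with a counting interval clear of 1. The difference between the populations was not tested. Over all 1225 genes, 14 were higher in mutant members and lower in the mutant's other barcodes, and 22 the reverse.

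3 matrix genes were lower in mutant members and higher elsewhere. adamtsl2 had a ratio of 0.528 in members and 1.85 in other barcodes, aspn 0.505 and 1.33, and ogn 0.839 and 1.75. In other barcodes these 3 genes were at low levels, from 2.20 CPM for adamtsl2 in WT to 46.6 CPM for ogn in the mutant library. The summed markers that set membership were themselves lower in the mutant library. Barcodes that failed only the marker sum numbered 332 in WT and 481 in the mutant library. Members held 65.4% of the WT and 33.9% of the mutant ogn UMIs. Whether the marker limit bears on the opposite directions was not tested.

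5 genes were higher in mutant members and lower elsewhere. epyc had ratios of 1.25 and 0.894, the first of which turned below 1 (log2 -0.09) with members chosen after thinning, fosab, an immediate early gene, 1.16 and 0.594, mmp2 1.23 and 0.907, and twist1a 1.17 and 0.904. si:ch211-133n4.6 had 53.1, against a floor of 3 UMIs, and 0.472, and 1 mutant member held 89.1% of its UMIs.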

How the results depend on the processing

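No paired analysis was possible because each genotype has 1 library.

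The member share in WT and the mutant library was 14.29% and 9.277% with a marker sum of at least 3, 8.896% and 4.638% with at least 6, 14.63% and 8.878% with at least 6 UMIs per 10000, 15.22% and 9.975% without the 4 other bounds, and 8.32% and 4.044% with the rule applied after thinning. With matn1 under 10 per 10000 the WT share was 10.55%. Genes at least 2-fold higher and lower in mutant members numbered 4 and 34 with a marker sum of at least 6, 6 and 14 after thinning, 21 and 30 with TMM scaling, 23 and 29 without mitochondrial and ribosomal genes, 127 and 464 with a minimum of 20 UMIs and 3 and 10 with 300. With matn1 under 10, 7 were higher, and with the mean of per-cell CPM 36 were lower. Fewer or more genes were tested where the UMI minimum or the number of members changed, and the cause of the other shifts was not tested. With a minimum of 300 UMIs, 96 genes stood at least 2-fold above other barcodes in both libraries. Over list genes with at least 100 UMIs, 17 ER folding and 8 microfibril genes were lower.

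tnmd was found in 23.65% of WT members thinned to 4000 UMIs. ogn was found in 45.27% and 45.28% at 4000 UMIs and 43.95% and 45.64% without thinning, and hyal4 in 35.89% and 39.6% without it. The log2 ratio of spp1, -2.44, turned to 0.4184 with a marker sum of at least 6 and 0.3799 after thinning, and that of krt94, 1.17, to -0.1389 without the keratin-bearing members, an alternative chosen after seeing the data. The cause was not tested. Of 1742 alternative values of named genes, 1604 stayed within the counting interval of the main value and 138 did not, 50 of these after thinning. The limits of depth are plain for list genes of 20 to 99 UMIs, whose intervals often span 1, and the single library per genotype bounds every comparison.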
